A study of Mus musculus with 6 samples.

Results

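The transcripts described here are the structured non-coding RNAs of mouse testis: small nuclear RNAs (snRNAs), small nucleolar RNAs (snoRNAs) and the Ensembl biotype misc_RNA, which holds 7SK, 7SL, RNase P, RNase MRP, Y, vault and telomerase RNAs. Members were the genes of these 3 biotypes whose raw counts summed to at least 200 over the 6 mice, and were thus chosen by their total counts, with no contrast between genotypes. Of 26743 genes in the table, 94 qualified: 55 of 448 snoRNA genes, 23 of 186 misc_RNA genes and 16 of 407 snRNA genes. The members just inside the limit were SNORA84 on chromosome 16 with 200 counts, SNORD101 with 201 and SNORA62 with 202, and the genes just outside it were a copy of U3 with 187, AL645907.1 with 194 and Snora21 with 195. RNA was sequenced from whole testes of wild-type (WT) mice and of Trf2-/- mice, in which the gene of the TBP-related factor Trf2 (Tbpl1) was inactivated, with 3 mice per genotype, all at post-natal day 21. The genotype is labelled for the whole animal, and the labels name no strain. The methods name a 129/SvPas background in their section on another line, with a tagged Trf2, and do not say there whether it holds for the Trf2-/- mice. Total RNA was depleted of ribosomal RNA and copied with random primers, so that RNAs without a poly(A) tail were kept. The comparison of the genotypes asked which structured RNAs changed when Trf2 was lost.

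As background, most of these RNAs work inside ribonucleoprotein particles. The U snRNAs build the spliceosome, box C/D snoRNAs guide ribose methylation of RNA, box H/ACA snoRNAs guide pseudouridylation, and scaRNAs do the same for snRNAs in Cajal bodies. 7SK holds the elongation kinase P-TEFb in an inactive particle, 7SL is the scaffold of the signal recognition particle, RNase P RNA trims the leading ends of tRNA precursors and RNase MRP RNA acts on ribosomal RNA precursors. RNA polymerase III, whose initiation factors include Tbp itself, makes 7SK, 7SL, RNase P, RNase MRP, U6, U6atac, Y and vault RNAs, whereas RNA polymerase II makes the other U snRNAs and the host transcripts whose introns release most snoRNAs.

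Tbpl1, the inactivated gene, stood at 308, 283 and 294 CPM (WT mice 1 to 3) against 62.9, 64.3 and 55.8 CPM (Trf2-/- mice 1 to 3), so that every library matched its genotype label. The libraries held between 15187062 and 29859347 counts, the smallest being that of Trf2-/- mouse 3. Levels are given as CPM, counts per 1000000 after TMM scaling of the libraries, and the smallest member mean in WT testis was 1.16 CPM. Of 7 round spermatid markers tested, 6 fell and 0 rose, their summed level being 343 to 364 CPM over WT testes against 137 to 219 CPM over Trf2-/- testes, and both elongating spermatid markers that could be tested, Akap4 and Odf1, fell, with Prm2, Prm3 and Tnp1 at 9 counts or fewer in all 6 mice together. Of 7 macrophage markers 5 rose (summed level 176 to 199 CPM over WT testes against 201 to 397 CPM over Trf2-/- testes) and of 6 Sertoli cell markers 3 rose (summed level 669 to 676 CPM over WT testes against 721 to 752 CPM over Trf2-/- testes). Of 7 pachytene spermatocyte markers 3 rose and 4 fell, 2 of them by 2-fold or more, and their summed level was 4947 to 5205 CPM over WT testes against 3523 to 4121 CPM over Trf2-/- testes, lower in every Trf2-/- mouse. Among 6 Leydig cell and 6 spermatogonia markers 1 each rose and 0 fell, and 0 of 4 peritubular, 2 T cell and 5 red blood cell markers passed. Of all 16924 genes tested, 11.2% rose and 20.2% fell in the same test, described below. The marker shares that rose were 71.4% (macrophage), 50.0% (Sertoli), 42.9% (pachytene) and 16.7% (Leydig and spermatogonia each). Those that fell were 85.7% (round spermatid), 100% (elongating) and 57.1% (pachytene). The part of this difference in cell content in the values below was not tested, and in whole testis fewer cells of a type and less RNA per cell cannot be told apart.

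Most structured RNAs did not pass the test between genotypes, and those that did were higher in Trf2-/- testis with 1 exception. Among the 94 members, 13 rose and 1 fell past an adjusted p of 0.05 (Benjamini-Hochberg, BH, over all genes tested), and 80 did not pass the test. The 14 members that passed made up 14.9% of the members, against 31.4% of the 16924 genes tested. With every mouse kept, the 13 that rose were 13.8% of the members, a share near the 11.2% of all genes tested. The single one that fell was 1.06%, against 20.2%. No member (0 of 94) changed 2-fold or more past the adjusted p in edgeR's quasi-likelihood test, while 4.9% of all genes tested did, and 28 members had an unadjusted p under 0.05. DESeq2 also called 0 members at 2-fold. All 94 members passed the filter on low counts and were tested.

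The median log2 fold change of the members was 0.18, beside 0.04 for all genes tested, and 78.7% of the members had a value above 0, beside 54.9% of all genes. The median was 0.44 for the 16 snRNAs, 0.18 for the 55 snoRNAs and 0.10 for the 23 misc_RNAs. Levels of the genotypes did not overlap in 19 members that were higher in all Trf2-/- mice, 20.2% of the members beside 22.3% of all genes, and in 2 that were lower, 2.13% beside 26.8%. The 3 Trf2-/- mice were not alike. Trf2-/- mouse 3 held the highest level of 44 members and mouse 2 that of 20, whereas mouse 1 held that of 6. Among the 13 members that rose, mouse 1 was the lowest Trf2-/- mouse in 12. Among the Trf2-/- mice, mouse 1 also had the highest sum of macrophage markers (397 CPM) and mouse 3 the lowest sum of round spermatid markers (137 CPM), and their part in these differences was not tested. The median log2 ratio of the members to the WT mean was 0.04, 0.23 and 0.27 in Trf2-/- mice 1, 2 and 3, and -0.07, -0.02 and 0.09 in the WT mice.

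The number of members that passed depended on single mice. Omitting a WT mouse gave 3 members (mouse 1), 5 (mouse 2) and 13 (mouse 3), beside 19.8%, 20.2% and 23.5% of all genes. Omitting a Trf2-/- mouse gave 21 (mouse 1), 4 (mouse 2) and 9 (mouse 3), beside 24.1%, 27.9% and 30.2% of all genes. With Trf2-/- mouse 1 omitted, 20 of the 94 members rose, beside 6.86% of all genes, so the members had the larger share. With Trf2-/- mouse 2 omitted they had the smaller one, as 3 rose, beside 8.96% of all genes. Scaling by library size alone gave 31, when 41.1% of all genes passed. Rny3, Snora78 and Snora74a passed with each mouse left out in turn, under each other scaling, without the filter, in DESeq2's Wald test and with the replicate block. In DESeq2's Wald test U4atac, Scarna2, Snora73a, Snora73b, snoU6-77 and Snord100 did not pass. In the plot of the members that passed, the mice of each genotype are shown by symbol.

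**Figure D1:**
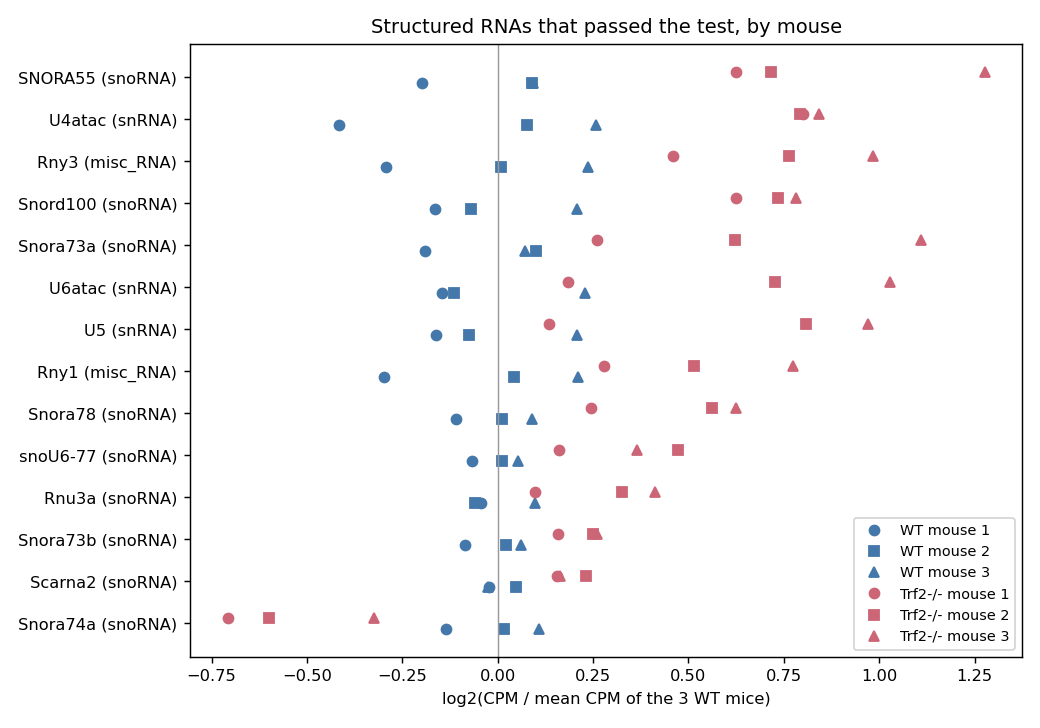
Each row is a structured RNA that passed the test, and the x axis gives the log2 ratio of its CPM in each mouse to the mean of the 3 WT mice (blue, WT; red, Trf2-/-; circles, squares and triangles, mice 1, 2 and 3). Snora74a is the only row with all red symbols to the left of the blue ones, and in U5, U6atac and Rnu3a the colours overlap.

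Both Y RNAs among the members rose, beside 11.2% of all genes tested. Y RNAs bind the Ro protein and act in RNA quality control. The genes of Rny3 (chr6:47731623-47731724 of NCBIM37, plus strand) and Rny1 (chr6:47738068-47738179, minus strand) lie close together on chromosome 6, their sequences are 72.3% identical over the alignment, and they are shown because they were the only family in which every member passed. Capitals mark their longest shared run, of 12 bases.
Rny3: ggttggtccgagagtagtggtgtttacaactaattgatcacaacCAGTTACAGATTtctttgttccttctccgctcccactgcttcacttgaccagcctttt
Rny1: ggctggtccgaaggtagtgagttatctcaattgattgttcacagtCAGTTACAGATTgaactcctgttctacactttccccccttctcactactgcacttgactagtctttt

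Rny3 stood at 13.6, 16.7 and 19.6 CPM (WT mice 1 to 3) against 22.9, 28.3 and 32.9 CPM (Trf2-/- mice 1 to 3). All 3 Trf2-/- values lay above the WT values. The mean rose from 16.7 ± 3.02 to 28.0 ± 5.02 CPM (mean ± SD of 3 mice per genotype), log2 fold change 0.75 ± 0.16 (SE of the fit, BH-adjusted p = 0.00719 in edgeR's quasi-likelihood test). With each mouse left out the log2 fold change ran from 0.62 to 0.88. Rny1 was less abundant, at 5.05, 6.40 and 7.20 CPM (WT mice 1 to 3) against 7.54, 8.88 and 10.6 CPM (Trf2-/- mice 1 to 3), again without overlap. Its log2 fold change was 0.53 (BH-adjusted p = 0.0424), and it no longer passed without WT mouse 1 or 2 or Trf2-/- mouse 2 or 3. Per kilobase of gene the WT level of Rny3 was 163 CPM and that of Rny1 55.5 CPM. Among the proteins that bind vault and Y RNAs, Trove2, the Ro protein, had a log2 fold change of 0.24 (BH-adjusted p = 0.0446) and Ssb, the La protein, one of 0.15 (BH-adjusted p = 0.0605).

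The 4 snRNAs of the minor spliceosome, which removes a rare class of introns, all had positive fold changes. U4atac and U6atac passed (50.0% of the 4, beside 11.2% of all genes tested that rose). These 2 RNAs pair with each other in the minor tri-snRNP. Both sequences are shown for that pairing, with capitals on the longest run of U4atac that is complementary to U6atac, which spans 8 bases, from base 2 to 9 of U4atac and from base 41 to 48 of U6atac.
U4atac: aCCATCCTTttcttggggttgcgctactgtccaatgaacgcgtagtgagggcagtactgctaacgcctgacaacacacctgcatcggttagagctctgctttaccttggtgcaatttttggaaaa
U6atac: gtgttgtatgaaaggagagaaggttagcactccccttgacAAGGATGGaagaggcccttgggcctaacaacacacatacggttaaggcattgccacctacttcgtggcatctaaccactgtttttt

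U4atac (chr1:120355718-120355842, minus strand) had 25, 32 and 29 counts (WT mice 1 to 3) against 51, 47 and 33 counts (Trf2-/- mice 1 to 3), and its levels, 1.16 ± 0.266 CPM in WT and 2.04 ± 0.0386 CPM in Trf2-/- testis (mean ± SD of 3 mice per genotype), did not overlap. The log2 fold change of 0.83 ± 0.22 (SE of the fit, BH-adjusted p = 0.0206 in edgeR's quasi-likelihood test) rested on these few reads, as counting error alone would give a standard error of 0.20. U4atac lies opposite Clasp1 (log2 fold change 0.13), and as the strand setting of the counting is not given, reads of the 2 genes cannot be told apart here. U4atac passed without WT mouse 3 or Trf2-/- mouse 3 and with no other mouse left out. U6atac (chr2:27395325-27395450, minus strand) stood at 2.997, 3.06 and 3.89 CPM (WT mice 1 to 3) against 3.77, 5.49 and 6.76 CPM (Trf2-/- mice 1 to 3). Trf2-/- mouse 1 lay within the WT values and mice 2 and 3 above them, with a log2 fold change of 0.68 (BH-adjusted p = 0.0469). U6atac passed without Trf2-/- mouse 1 but not without any other mouse. Rnu11 and Rnu12, the other snRNAs of the minor spliceosome among the members, had log2 fold changes of 0.51 (BH-adjusted p = 0.123) and 0.22 (BH-adjusted p = 0.394). The sum of the 4 minor snRNAs took 0.00125% of the counts in WT and 0.00188% in Trf2-/- testis, 1.501-fold more.

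Of the 12 major spliceosomal snRNA genes 1 rose (8.33%, beside 11.2% of all genes tested) and 0 fell, beside 20.2%. The gene that rose was a copy of U5, the snRNA that holds the exon ends. This copy (chr4:116862547-116862662) stood at 6.20, 6.59 and 8.01 CPM (WT mice 1 to 3) against 7.62, 12.1 and 13.6 CPM (Trf2-/- mice 1 to 3), Trf2-/- mouse 1 lying within the WT values, with a log2 fold change of 0.67 ± 0.21 (SE of the fit, BH-adjusted p = 0.0368 in edgeR's quasi-likelihood test). It passed without WT mouse 3 or Trf2-/- mouse 1 and with no other mouse left out. The neighbouring U5 copy (chr4:116875133-116875248) had 2.20, 2.14 and 2.83 CPM (WT mice 1 to 3) against 2.46, 4.16 and 5.82 CPM (Trf2-/- mice 1 to 3) and a log2 fold change of 0.77 (BH-adjusted p = 0.0744). The shares of their 50-base windows that occur once in the genome were low (50.7% and 49.3%), so reads of the copies could be exchanged.

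U2, which pairs with the branch point, took most of the snRNA counts: its 4 copies and AC120136.3, which is 98.4% identical to the U2 copy on chromosome 8, held 60.3% of them. The share of their 50-base windows found once in the genome ran from 15.5% (chromosome 11) to 88.0% (chromosome 12). That of U1 on chromosome 12 was 41.7%. As the handling of reads with several positions is not given, these counts need not rank the RNAs by abundance. The U2 copy on chromosome 12 stood at 93.5, 94.4 and 97.5 CPM (WT mice 1 to 3) against 78.9, 95.2 and 115 CPM (Trf2-/- mice 1 to 3). The Trf2-/- mice spread on both sides of the WT values, and the log2 fold change was 0.01 (BH-adjusted p = 0.943). The copy on chromosome 1 had 38.6, 44.7 and 47.2 CPM (WT mice 1 to 3) against 42.9, 59.5 and 83.5 CPM (Trf2-/- mice 1 to 3), highest in Trf2-/- mouse 3, and a log2 fold change of 0.50 (BH-adjusted p = 0.0879). The sequences of these copies differ at 10 of 191 bases. AC120136.3 had a log2 fold change of 0.45 (BH-adjusted p = 0.0599) and the U2 copies on chromosomes 11 and 8 had 0.43 (BH-adjusted p = 0.184) and 0.53 (BH-adjusted p = 0.0862). The 2 adjacent U4 genes on chromosome 5 had values of 0.20 and 0.16, and a gene annotated as U6 on chromosome X had 0.32. The genes annotated as U1 had 0.39 on chromosome 12 and -0.12 on chromosome 3, the only negative value among the snRNAs. All 50-base windows of this U6 gene and of U1 on chromosome 3 occur once in the genome. Their mean WT levels were 3.88 and 1.59 CPM. Whether these 2 genes make the U6 and U1 snRNAs of the spliceosome was not tested. None of the U1, U2, U4 and U6 genes passed. The per-mouse median log2 ratio of all 16 snRNAs to the WT mean was 0.08, 0.47 and 0.79 in Trf2-/- mice 1, 2 and 3.

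Rn7sk, the 7SK gene on chromosome 9 (chr9:78023110-78023440, minus strand), had the most counts of the members and held 65.2% of all counts of the 94 genes. Its first 100 bases are shown, since they hold the leading hairpin to which the P-TEFb inhibitor Hexim1 binds, with each GATC in capitals. This stretch holds 3 of them on the strand shown.
Rn7sk: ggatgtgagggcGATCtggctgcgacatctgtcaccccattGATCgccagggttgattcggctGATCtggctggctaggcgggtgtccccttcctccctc

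Rn7sk stood at 18094, 19345 and 18860.2 CPM (WT mice 1 to 3) against 19799.5, 20652 and 22243 CPM (Trf2-/- mice 1 to 3). The Trf2-/- mice all lay above the WT mice, by 1.11-fold in the mean (18766 ± 630.4 against 20898 ± 1240.2 CPM, SD, n = 3 mice each), with a log2 fold change of 0.16 ± 0.06 (SE of the fit, BH-adjusted p = 0.0672 in edgeR's quasi-likelihood test), so that Rn7sk did not pass. Its level of 56696 CPM per kilobase in WT testis was the highest of the members. The 6 other 7SK genes, copies of at least 93.1% identity over the aligned part, had mean WT levels of 2.26 to 13.6 CPM and log2 fold changes from -0.41 to 0.31, and none passed. Only 31.9% of the 50-base windows of Rn7sk occur once in the genome. As the handling of reads with several positions is not given, the rank in counts need not be a rank in abundance. The proteins of the 7SK particle moved both ways. Larp7, which binds the tail of 7SK, fell from 263 ± 4.56 to 182 ± 18.2 CPM (mean ± SD of 3 mice per genotype, log2 fold change -0.53, BH-adjusted p = 0.000940), the capping enzyme Mepce fell with a log2 fold change of -0.18 (BH-adjusted p = 0.0484), and Hexim1 rose with one of 0.35 (BH-adjusted p = 0.0169).

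Rpph1 and Rmrp, the RNA subunits of RNase P and RNase MRP, followed 7SK in counts and did not pass. Rpph1 (chr14:51427124-51427442, minus strand) stood at 4602, 4996 and 5078 CPM (WT mice 1 to 3) against 4919.8, 5766 and 5699 CPM (Trf2-/- mice 1 to 3), with Trf2-/- mouse 1 inside the WT range, and its log2 fold change was 0.16 (BH-adjusted p = 0.115). Rmrp (chr4:43505660-43505930, minus strand) stood at 2699.8, 2802 and 2968 CPM (WT mice 1 to 3) against 2662, 3106 and 3292 CPM (Trf2-/- mice 1 to 3), with overlap, and its log2 fold change was 0.10 (BH-adjusted p = 0.363). Rmrp lies opposite Ccdc107, which had 412 counts in WT mouse 1 against 77478 for Rmrp. Per kilobase the WT levels were 15335 CPM for Rpph1 and 10418 CPM for Rmrp. Of the 10 proteins of the 2 enzymes that were tested, 2 rose, beside 11.2% of all genes tested, and 3 fell, beside 20.2%. Rpp21 had the lowest log2 fold change, -0.38 (BH-adjusted p = 0.00753), and Rpp25 the highest, 0.59 (BH-adjusted p = 0.112).

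Some members varied more between mice of 1 genotype than between the genotypes. Rprl3, an RNase P RNA gene on chromosome 8 (chr8:3803069-3803358), had 12857, 21068 and 14363 counts (WT mice 1 to 3) against 16781, 13955 and 17285 counts (Trf2-/- mice 1 to 3). The values range over 448 to 807 CPM in WT and 598 to 1093 CPM in Trf2-/- testis, and the log2 fold change was 0.28 ± 0.25 (SE of the fit, BH-adjusted p = 0.423 in edgeR's quasi-likelihood test). AC069308.1, a 7SL relative inside Hydin on chromosome 8, had 137, 37 and 150 counts (WT mice 1 to 3) against 31, 139 and 28 counts (Trf2-/- mice 1 to 3). It was low in WT mouse 2 and Trf2-/- mice 1 and 3 and high in the other 3 mice. The 7SK copy on chromosome X had 182, 69 and 173 counts (WT mice 1 to 3) against 85, 145 and 50 counts (Trf2-/- mice 1 to 3), with the lowest WT value again in mouse 2 and the highest Trf2-/- value in mouse 2. The 7SK copy on chromosome 2, inside Celf2, had 56, 118 and 37 counts (WT mice 1 to 3) against 110, 40 and 68 counts (Trf2-/- mice 1 to 3), with the highest WT value in mouse 2 and the lowest Trf2-/- value in mouse 2. These 3 RNAs and Rprl3 were picked after their values were seen, and log2 fold changes between genotypes of -0.54 ± 0.64, -0.41 ± 0.40 and 0.31 ± 0.43 (standard error) for the last 3 were smaller than their error or about as large. The cause of the differences between mice was not tested.

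**Figure D2:**
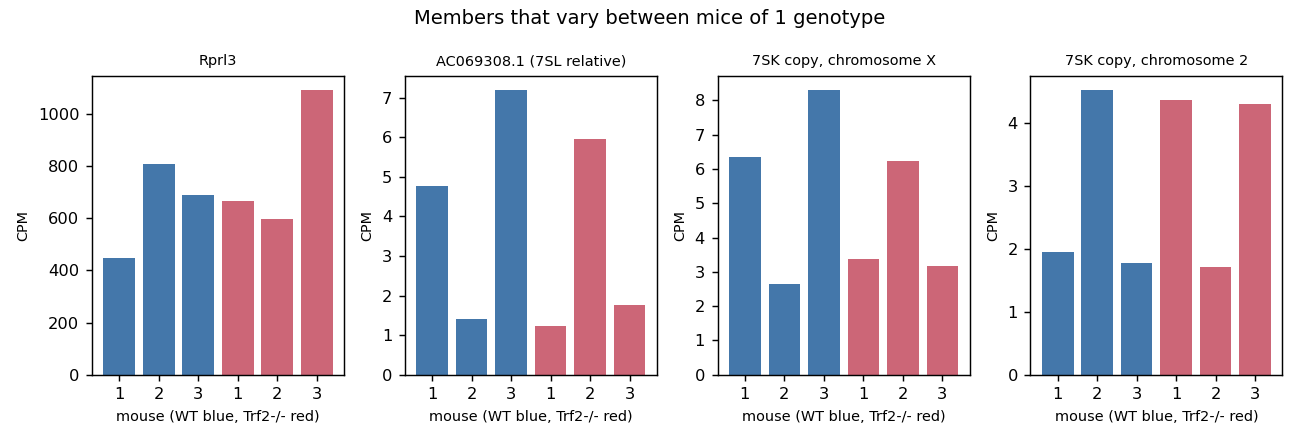
Bars give the CPM of 4 members in each mouse (blue, WT; red, Trf2-/-; mice 1 to 3 of each genotype, axes starting at 0). AC069308.1 ran from 1.42 to 7.20 CPM among WT mice and from 1.23 to 5.96 CPM among Trf2-/- mice.

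The 7SL genes, 8 in number, including relatives named by their clones, were the one family whose median was below 0 (-0.09) with more than 1 member, and none passed. Rn7s1 (chr12:70260282-70260578, plus strand) had 21.6, 19.4 and 18.6 CPM (WT mice 1 to 3) against 19.8, 23.2 and 15.4 CPM (Trf2-/- mice 1 to 3) and a log2 fold change of -0.02 (BH-adjusted p = 0.914). The relative AC122546.1 on chromosome 5, at 91.6% identity to Rn7s1, had the largest count of the family and 27.8, 19.3 and 24.5 CPM (WT mice 1 to 3) against 19.1, 24.7 and 15.99 CPM (Trf2-/- mice 1 to 3), its log2 fold change being -0.25 (BH-adjusted p = 0.282). Rn7s1 and Rn7s2 are identical over all 297 bases, and yet 2799 counts were assigned to the former and 535 to the latter. None of their 50-base windows occurs once in the genome, and how reads were divided between them is not given in the sources used here. The summed level of the 8 genes was 0.00572% of the counts in WT and 0.00550% in Trf2-/- testis. Of 7 signal recognition particle proteins that were tested, 3 fell, 42.9% beside 20.2% of all genes tested, and 0 rose, beside 11.2%. Srp68 was among those that fell, with the lowest log2 fold change of -0.39 (BH-adjusted p = 0.00183). The highest was that of Srp54c, 0.09 (BH-adjusted p = 0.530).

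Among the 31 box H/ACA snoRNAs 4 rose, 12.9% beside 11.2% of all genes tested, and 1 fell, 3.23% beside 20.2%. The one that fell was Snora74a (chr18:35716686-35716881, plus strand), at 25.1, 27.9 and 29.7 CPM (WT mice 1 to 3) against 16.9, 18.2 and 22.0 CPM (Trf2-/- mice 1 to 3). The Trf2-/- values all lay below the WT values, with means of 27.5 ± 2.34 and 19.0 ± 2.67 CPM (mean ± SD of 3 mice per genotype) and a log2 fold change of -0.54 ± 0.11 (SE of the fit, BH-adjusted p = 0.00576 in edgeR's quasi-likelihood test). With each mouse left out it ran from -0.64 to -0.48. It lies in the non-coding host gene Snhg4, whose own log2 fold change was similar in size, -0.54, but did not pass (adjusted p = 0.122 in this test) at a mean WT level of 1.66 CPM. Snora78 (chr17:24856621-24856748, minus strand) rose, at 15.6, 16.9 and 17.9 CPM (WT mice 1 to 3) against 19.9, 24.8 and 25.9 CPM (Trf2-/- mice 1 to 3), without overlap and with a log2 fold change of 0.48 (BH-adjusted p = 0.0102). Its host Snhg9 was too low to be tested, with 5 to 11 counts per mouse, and it lies opposite Rps2, which rose with a log2 fold change of 0.24 (BH-adjusted p = 0.0238).

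Snora73a and Snora73b, 2 copies of 96.6% identity within the Rcc1 and Snhg3 locus on chromosome 4, both rose. Snora73b was the more abundant, at 33.4, 36.0 and 37.0 CPM (WT mice 1 to 3) against 39.6, 42.2 and 42.5 CPM (Trf2-/- mice 1 to 3), without overlap, with a log2 fold change of 0.22 ± 0.06 (SE of the fit, BH-adjusted p = 0.0256 in edgeR's quasi-likelihood test). Snora73a stood at 2.44, 2.99 and 2.93 CPM (WT mice 1 to 3) against 3.33, 4.29 and 6.01 CPM (Trf2-/- mice 1 to 3), also without overlap, with a log2 fold change of 0.69 (BH-adjusted p = 0.0453). Neither passed without WT mouse 1 or 2 or Trf2-/- mouse 2, and Snora73a not without WT mouse 3 or Trf2-/- mouse 3 either. Both lie opposite Gm17300. Rcc1, an exchange factor of the GTPase Ran, fell with a log2 fold change of -0.22 (BH-adjusted p = 0.0355), whereas Snhg3 had one of -0.13 (BH-adjusted p = 0.232). Snora73a overlaps an exon of its host, so its reads and those of the host transcript could be mixed. The difference between the snoRNAs and Rcc1 was not tested. SNORA25, 1 of 4 snoRNAs of Taf1d among the members, had 267 counts although none of its 50-base windows occurs once in the genome, and its levels were lower in all Trf2-/- mice (log2 fold change -0.48, BH-adjusted p = 0.0832).

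SNORA55 is encoded by 2 copies in introns of Pabpc4, a poly(A)-binding protein gene. The first copy (chr4:122968587-122968717) and the second (chr4:122970395-122970525), both on the plus strand, are 96.9% identical, and capitals mark the 4 bases at which they differ. They are shown because only the first copy passed.
SNORA55, first copy: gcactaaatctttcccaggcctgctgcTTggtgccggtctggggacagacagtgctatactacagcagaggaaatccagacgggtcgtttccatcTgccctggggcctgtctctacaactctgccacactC
SNORA55, second copy: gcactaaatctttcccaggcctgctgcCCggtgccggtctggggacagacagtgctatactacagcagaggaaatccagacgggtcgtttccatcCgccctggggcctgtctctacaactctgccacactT

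The first copy stood at 1.57, 1.92 and 1.92 CPM (WT mice 1 to 3) against 2.78, 2.96 and 4.36 CPM (Trf2-/- mice 1 to 3) without overlap, with a log2 fold change of 0.88 ± 0.22 (SE of the fit, BH-adjusted p = 0.0152 in edgeR's quasi-likelihood test), the largest among the members that passed. It no longer passed without WT mouse 1 (adjusted p = 0.0665 in this test). The second copy stood at 2.23, 3.41 and 3.74 CPM (WT mice 1 to 3) against 3.33, 4.76 and 4.49 CPM (Trf2-/- mice 1 to 3), with overlap, and its log2 fold change was 0.43 (BH-adjusted p = 0.178). The difference between the copies was not tested, and 63.4% and 79.3% of their 50-base windows occur once in the genome. Pabpc4 itself rose with a log2 fold change of 0.33 (adjusted p = 0.0277 in this test).

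Of the 8 box C/D snoRNAs 2 rose, Snord100 and Rnu3a (25.0%, beside 11.2% of all genes tested), and 0 fell, beside 20.2%. Snord100 (chr10:23505556-23505629, minus strand) lies in an intron of Rps12, a ribosomal protein gene of the small subunit. It is shown as the shortest member that passed, with capitals on the first TGATGA, the letters of box C, from base 9 and the last CTGA, the letters of box D, from base 65.
Snord100: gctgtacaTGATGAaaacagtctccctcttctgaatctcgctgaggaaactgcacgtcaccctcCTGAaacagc

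Snord100 had 33, 32 and 31 counts (WT mice 1 to 3) against 50, 50 and 35 counts (Trf2-/- mice 1 to 3), and its levels of 1.29 ± 0.177 and 2.11 ± 0.117 CPM (mean ± SD of 3 mice per genotype) did not overlap, with a log2 fold change of 0.72 ± 0.19 (SE of the fit, BH-adjusted p = 0.0208 in edgeR's quasi-likelihood test). It passed without WT mouse 3 or Trf2-/- mouse 1 or 3 and with no other mouse left out. SNORD101, in the same host, had a log2 fold change of 0.44 (BH-adjusted p = 0.156), and Rps12 rose with one of 0.36 (adjusted p = 0.00227 in this test). Rnu3a, the U3 gene that acts in processing of the small ribosomal subunit RNA (chr10:39978273-39978484, plus strand), stood at 161, 159 and 177 CPM (WT mice 1 to 3) against 177, 208 and 220.4 CPM (Trf2-/- mice 1 to 3), Trf2-/- mouse 1 overlapping with the WT values, with a log2 fold change of 0.28 (BH-adjusted p = 0.0270). It no longer passed without WT mouse 1 or 2 or Trf2-/- mouse 2. Snord13 had the largest log2 fold change of all 94 members, 0.89, but did not pass (adjusted p = 0.0686 in this test), and Trf2-/- mouse 1 at 2.30 CPM lay within the WT values, whereas mice 2 and 3 stood at 5.02 and 6.07 CPM.

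Among families of more than 1 gene the scaRNAs had the smallest errors, with a median log2 fold change of 0.06 over 11 genes and a median of the standard errors of 0.09. Scarna10 (chr6:125136377-125136701), inside Ncapd2, was the most abundant snoRNA of the table and stood at 361, 380.3 and 370.3 CPM (WT mice 1 to 3) against 378, 386 and 376 CPM (Trf2-/- mice 1 to 3). These values overlap, and the log2 fold change was 0.04 (BH-adjusted p = 0.543). Scarna2 (chr3:108357256-108357669), which has no host in the annotation, stood at 83.5, 87.8 and 83.3 CPM (WT mice 1 to 3) against 94.5, 99.7 and 95.0 CPM (Trf2-/- mice 1 to 3). It was higher in all Trf2-/- mice and rose by 1.14-fold, with a log2 fold change of 0.18 ± 0.05 (SE of the fit, BH-adjusted p = 0.0204 in edgeR's quasi-likelihood test). Scarna2 no longer passed without WT mouse 1 or 3 or Trf2-/- mouse 1 or 2. Scarna13 had a log2 fold change of -0.03 (BH-adjusted p = 0.745), and snoU90, an abundant snoRNA in Kpna4, one of 0.04 (BH-adjusted p = 0.623). A further snoRNA named snoU6-77 in an intron of Eif4a1, an RNA helicase gene of translation initiation, rose with a log2 fold change of 0.34 (BH-adjusted p = 0.0333), and passed without Trf2-/- mouse 1 but not without any other mouse. Eif4a1 rose too (0.25, adjusted p = 0.00978 in this test).

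In all, 53 members lay inside 43 host genes on the same strand, and 42 of the hosts were tested, of which 12 rose (28.6%, beside 11.2% of all genes tested) and 7 fell (16.7%, beside 20.2%). Of the 6 members that passed and had a tested host, 3 (SNORA55, Snord100 and snoU6-77) rose with a host that rose, and the host of Snora74a did not pass. The other 2, Snora73a and Snora73b, rose and lie inside both Rcc1, which fell, and Snhg3. Rcc1, as the protein-coding gene, was counted as their host, whereas Snhg3 did not pass (-0.13, adjusted p = 0.232 in edgeR's quasi-likelihood test). In 19 further pairs the host passed and the RNA inside it did not. An example is SNORA70 inside Csda, on chromosome 6, where the host fell with a log2 fold change of -0.79 (adjusted p = 0.000402 in edgeR's quasi-likelihood test) while the snoRNA had 0.12. SNORA4 inside 1700012A16Rik had -0.22 beside -0.85 for its host, which was the lowest host value. Over the 52 pairs the log2 fold changes correlated with Pearson's r = 0.44 and Spearman's rho = 0.42, which is a description across genes of the same 6 libraries, several of which share a host. The values of pairs are shown in the plot of RNAs inside host genes.

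**Figure D3:**
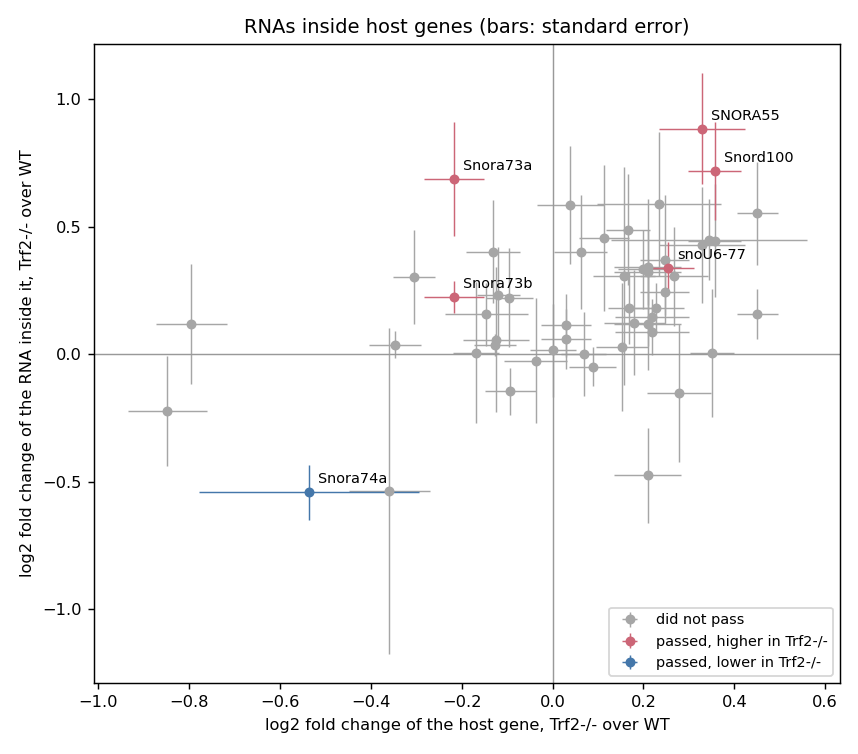
Each point is an RNA gene inside a host gene, with the log2 fold change of the host on the x axis and that of the RNA on the y axis, and bars of 1 standard error (red and blue, RNAs that passed, higher or lower in Trf2-/-; grey, the others). Most points lie above 0 on the y axis. Snora73a and Snora73b lie above 0 while Rcc1, which was counted as their host although Snhg3 also contains them, lies below it.

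Short members had a higher median fold change than long ones. The median log2 fold change was 0.32 for the 50 members under 150 bases, 0.23 for the 18 of at least 150 and under 250 bases and 0.06 for the 26 of 250 bases or more. Of the 13 that rose, 12 were under 250 bases, the exception being Scarna2 at 414 bases. By length, 9 of the 50 members under 150 bases rose, 3 of the 18 in the middle group and 1 of the 26 longest. Of all genes tested, 11.2% rose. Length on a log2 scale and log2 fold change had Pearson's r = -0.39 and Spearman's rho = -0.44 over the 94 genes of the same 6 libraries. By mouse, the median log2 ratio of the members under 150 bases to the WT mean was -0.10, -0.03 and 0.15 in the WT mice and 0.06, 0.25 and 0.49 in the Trf2-/- mice, so that Trf2-/- mouse 1 lay below WT mouse 3. For members of 250 bases or more the corresponding values were 0.05, -0.02 and 0.04 against -0.02, 0.14 and 0.08. The part of RNA or insert length in the fold changes was not tested further.

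**Figure D4:**
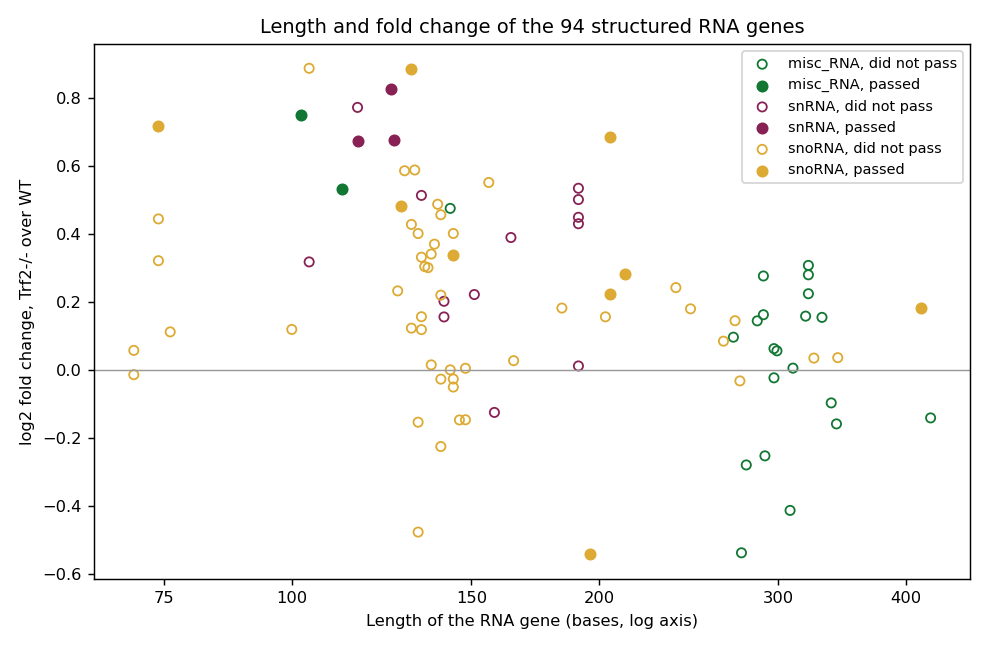
Each point is 1 of the 94 structured RNA genes, with its length in bases on a log axis and its log2 fold change between Trf2-/- and WT testis (filled, passed the test; open, did not pass; colours, biotype). Filled points above 0.3 all lie under 250 bases, and Snora74a is the filled point below 0.

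As shares of all counts of a library, without any scaling, the members held 2.79 ± 0.129% in WT and 3.31 ± 0.258% in Trf2-/- testis (mean ± SD of 3 mice per genotype), 1.19-fold more. The WT mice held 2.64, 2.89 and 2.83%, and the Trf2-/- mice 3.06, 3.29 and 3.57%, without overlap. The TMM factors applied to the CPM, but not to these shares, were 0.962 to 0.974 in WT and 1.03 to 1.04 in Trf2-/- libraries. Of 14 classes and families, 10 reached the smallest p that 3 against 3 mice allow, 0.1 (exact permutation test, two-sided, adjusted 0.14 over the 14), among them snoRNAs, 7SK, RNase P RNA and Y RNAs. The 14 sets are nested, as all members hold the biotypes and the biotypes hold the families, so the 10 are not separate results. With library size alone, 25.2% of all genes tested were higher past the adjusted p, beside 11.2% with TMM scaling. The snRNAs as a whole, the major snRNAs and RNase MRP RNA gave 0.2 and 7SL 0.9 (exact permutation test, two-sided). The 7SK genes held 1.82 ± 0.0723% and 2.16 ± 0.145%, the RNase P RNAs 0.536 ± 0.0438% and 0.646 ± 0.0673%, and the 55 snoRNAs 0.126 ± 0.00389% and 0.146 ± 0.00818% of the counts in WT and Trf2-/- testis (mean ± SD of 3 mice per genotype).

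**Figure D5:**
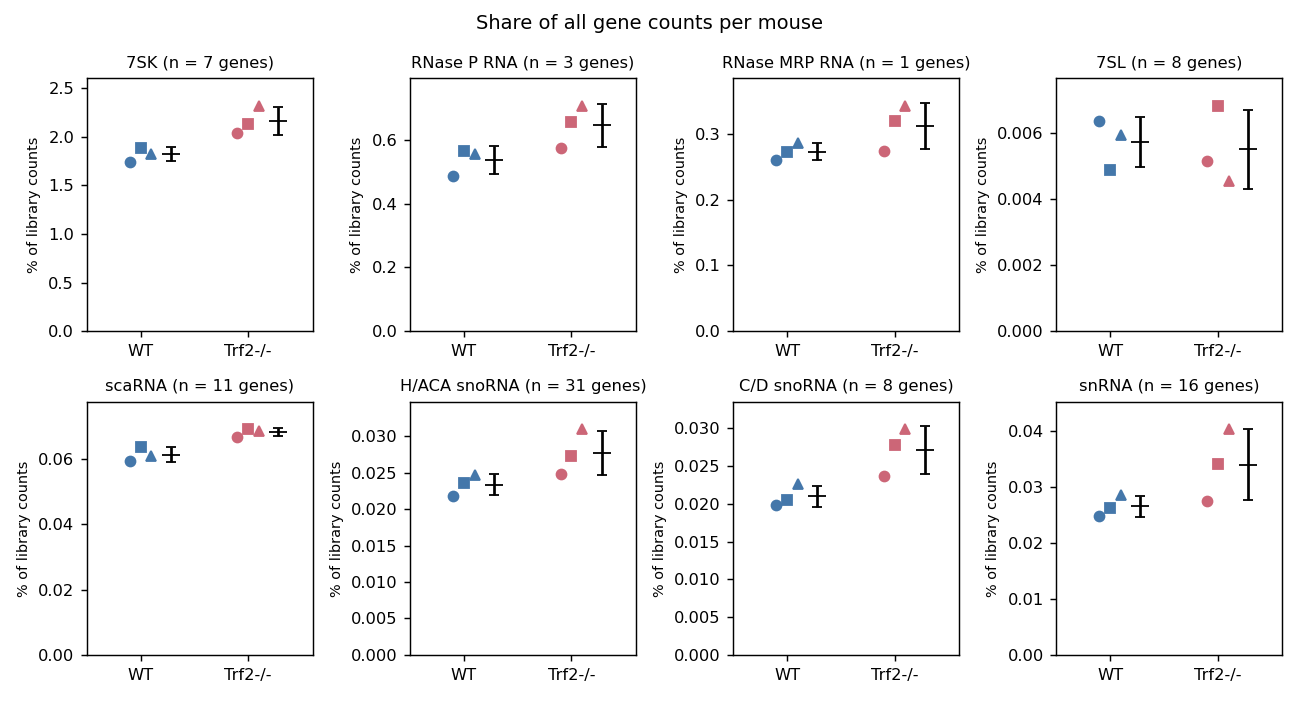
Each panel gives the percent of all gene counts of a library that fell on 1 class of structured RNA (blue, WT; red, Trf2-/-; circles, squares and triangles, mice 1, 2 and 3; black, mean and SD of 3 mice; axes start at 0). The 7SK panel shows all 3 Trf2-/- mice, at 2.04 to 2.32%, above the WT mice, while the genotypes overlap in the 7SL panel.

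The vault and telomerase RNAs did not pass. The vault RNA Vaultrc5 (chr18:36961520-36961662) stood at 2.40, 3.37 and 4.80 CPM (WT mice 1 to 3) against 5.20, 3.95 and 5.44 CPM (Trf2-/- mice 1 to 3), with overlap (log2 fold change 0.48, BH-adjusted p = 0.172). The telomerase RNA on chromosome 3, template of the telomere repeats, stood at 4.98, 6.82 and 6.52 CPM (WT mice 1 to 3) against 4.76, 5.45 and 6.51 CPM (Trf2-/- mice 1 to 3), the genotypes covering nearly the same range (log2 fold change -0.14, BH-adjusted p = 0.556). Vault protein Mvp rose with a log2 fold change of 0.45 (BH-adjusted p = 0.00732).

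The proteins that bind, make or assemble these RNAs were drawn from 9 lists. Of 134 such gene entries tested, 10 rose and 25 fell, 26.1% beside 31.4% of all genes, none by 2-fold or more, and their median log2 fold change was 0.02. Over the 9 lists the share that rose ran from 0% to 40% and the share that fell from 0% to 42.9%. Among 25 genes of RNA polymerase III and its factors 7 fell, 28.0% beside 20.2% of all genes tested, and 0 rose, beside 11.2%, with a median of -0.06. The lowest was Tbp, the paralogue of Trf2, which fell from 158 ± 6.31 to 117 ± 4.39 CPM (mean ± SD of 3 mice per genotype, log2 fold change -0.43, BH-adjusted p = 0.000622). The highest was Polr3d at 0.16 (BH-adjusted p = 0.124). Of 19 genes of SNAPc, the activator of snRNA promoters, and Integrator, which cleaves snRNA ends, 1 rose (Ints8, 0.21, BH-adjusted p = 0.0186) and 1 fell (Ints10, -0.65, BH-adjusted p = 0.000945). Each is 5.26% of the list, beside 11.2% of all genes tested that rose and 20.2% that fell. Of 35 gene entries of Sm, LSm and other U snRNP proteins 4 fell, 11.4% beside 20.2% of all genes tested, and 0 rose, beside 11.2%. The minor spliceosome protein Snrnp35 had the lowest log2 fold change, -0.54 (BH-adjusted p = 0.000458), and Lsm7 the highest, 0.27 (BH-adjusted p = 0.106).

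Among 14 genes of the snoRNP core and its assembly factors 2 rose (14.3%, beside 11.2% of all genes tested) and 2 fell (14.3%, beside 20.2%). Nop56, a core protein of box C/D particles, rose with a log2 fold change of 0.28 (BH-adjusted p = 0.00962), and Ruvbl2, an assembly ATPase, fell with one of -0.54 (BH-adjusted p = 0.000319). Among 12 Cajal body and snRNP assembly genes 2 rose (16.7%, beside 11.2%) and 3 fell (25.0%, beside 20.2%). Coil, the scaffold of Cajal bodies, fell from 174 ± 10.3 to 111 ± 18.5 CPM (mean ± SD of 3 mice per genotype) with a log2 fold change of -0.64 (BH-adjusted p = 0.00236), and Gemin8 had the highest value, 0.26 (BH-adjusted p = 0.222). Of the 5 vault, Ro and La protein genes 2 rose, beside 11.2% of all genes tested, and 0 fell, beside 20.2%. Tep1 had the lowest log2 fold change of these, 0.06 (BH-adjusted p = 0.507). Of the 7 genes of the 7SK particle and P-TEFb, 1 rose (14.3%, beside 11.2%) and 2 fell (28.6%, beside 20.2%), as given above with Larp7 and Hexim1 at the extremes. The summed level of the 7SK protein list was 622 to 655 CPM over WT testes against 568 to 571 CPM over Trf2-/- testes. Larp7, whose mean fell from 263 to 182 CPM, is part of this sum, so the sum does not describe the list as a whole. The median log2 fold change of the list was -0.01. Ccnt1 and Ccnt2 were higher in all Trf2-/- mice, as were 22.3% of all genes tested, and neither passed. Cdk9 had a log2 fold change of -0.01, with overlap of the genotypes.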

How the data were processed

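RNA was sequenced from testes of 3 WT and 3 Trf2-/- mice as single-end reads of 50 bases. Per the labels and the methods, the authors aligned them to mm9 with TopHat2 2.0.10 and Bowtie2 2.1.0 and counted reads per Ensembl gene with HTSeq 0.5.4p3, and they used DESeq2 1.0.19 (versions from the submitters' processing notes). The strand setting and the treatment of reads with several positions are not given in the sources used here, which bears on copies and opposite-strand genes. The deposited table holds raw counts per gene, used here, and 12 columns of normalized values, not used. Genes were tested across the whole table with edgeR 4.0.16 (TMM scaling, filterByExpr, quasi-likelihood test, Benjamini-Hochberg adjustment over 16924 genes, threshold 0.05), and the methods call the 3 samples per genotype independent biological replicates, so that p-values measure the spread between these samples. Errors of single values cover mice and counting together. Class shares were compared by exact permutation test. Alternatives were DESeq2 1.42.0, other scalings, no filter, a replicate block and leaving out each mouse. Positions and host genes came from the NCBIM37 annotation, where all 94 members lay at the same position as in the table, and RefSeq symbols (GRCm38.p6) were taken only where at least 2 of the 5 genes on either side were shared. Windows of 50 bases were searched on both strands of the genome. RNAs named by clone were placed in a family at 70% identity or more over at least 50% of their length. Named members were Tbpl1, the 5 largest per biotype, the 5 lowest and 5 highest fold changes that passed, all 7SK, 7SL, RNase P, MRP, telomerase, vault, Y and U RNAs, those at the count limit, their hosts and the extremes of each protein list. Outside this rule, Snora78, Snord13, SNORA25, SNORA70, SNORA4, the second SNORA55 copy and opposite-strand genes were named after their values were seen. So were Mepce, Trove2, Ssb, Ccnt1, Ccnt2 and Cdk9. Members, lists and tests were chosen with earlier results of these data known. The script was tested on simulated data.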

Additional observations from a re-analysis of the deposited data

How the results depend on the processing

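The direction of the members that passed was kept under each alternative, and their number was not. It was 14 with DESeq2's size factors in edgeR and with scaling on protein-coding genes, 31 (30 higher) with library size alone, 22 (21 higher) without a filter, 10 with DESeq2's Wald test, 2 (1 higher) at an adjusted p of 0.01, and 9 (8 higher) when members needed 1000 counts, since only 40 then qualify. Of all genes, 31.3% passed with DESeq2's size factors, 31.1% with scaling on protein-coding genes and 41.1% (25.2% higher) with library size alone. Without a filter 20.6% of all genes passed (7.64% higher), and with DESeq2's Wald test 16.2% did (4.77% higher). These 2 settings cover 26743 genes, low counts included, and not the 16924 of the main test. As every member has at least 200 counts, these shares of all genes are not on a like base with the members. With each mouse left out the number of members that passed ran from 3 to 21, and the higher ones from 2 to 20. Members at 2-fold ran from 0 to 2, the 2 being found without Trf2-/- mouse 1. The protein genes that passed ran from 20 to 33. Of all genes, 27.9% passed without Trf2-/- mouse 2, when 4 members did. The cause of these shifts was not tested. Library size alone moved the median log2 fold change of all genes from 0.04 to 0.13 and that of the members from 0.18 to 0.28. Ratios of the class shares moved by less than the spread between mice with protein-coding counts as the denominator, without the most abundant member and with each mouse left out. Among named members that did not pass, log2 fold changes near 0 changed sign. They became 0.071 for Rn7s1 with library size alone, -0.0018 for the 7SK copy on chromosome 12 with DESeq2's Wald test, -0.00101 for U2 on chromosome 12 with the replicate block and 0.063 for Scarna13 with library size alone. With each mouse left out they ran from -0.029 to 0.46 for Rprl3, from -0.18 to 0.12 for Rn7s1, from -0.055 to 0.19 for Rn7s2, from -0.24 to 0.18 for the 7SK copy on chromosome 12, from -0.10 to 0.40 for the RNase P RNA gene on chromosome 3, from -0.20 to 0.012 for the 7SK copy on chromosome 15, from -0.19 to 0.28 for CT025673.1, from -0.12 to 0.12 for U2 on chromosome 12, from -0.23 to 0.11 for U1 on chromosome 3, from -0.0091 to 0.059 for snoU90, from -0.081 to 0.014 for Scarna13, from -0.10 to 0.22 for SNORA70 on chromosome 6 and from -0.35 to 0.093 for SNORA84 on chromosome 16. Mice of the 2 genotypes share replicate numbers, but those with the same number did not deviate together (correlations -0.10, -0.031 and -0.10 across genes), so the numbers were not taken as pairs. With the replicate number as a block 17 members passed, 16 of them higher, including the 14 of the unblocked test. In that fit 27.1% of all genes passed, 8.78% being higher. Depth limits the members near 200 counts, whose median standard error was 0.22 for those under 500 counts, against 0.07 for those of 5000 or more.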
